A study of Rattus norvegicus with 6 samples.

Results

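Akap12 and 4 other genes for A-kinase anchoring proteins, Akap1, Akap10, Akap11 and Akap13, were followed in cultured rat cells from the nucleus pulposus, the soft core of the intervertebral disc. The genes were chosen by symbol, and all 5 were found among the 17139 genes of the deposited count table. Polyadenylated RNA had been sequenced from cells given 10 µM bradykinin, an inflammatory peptide (n = 3 libraries), and from cells with no treatment (control, n = 3 libraries). The bradykinin samples carry B2R in their titles, but their treatment label names bradykinin and was followed. The duration of treatment, and the strain, age and number of the rats, are not given in the sources used here, nor is it stated whether the libraries came from separate cultures or animals. A p-value here thus speaks only to the spread among the 6 libraries, part or all of which may be technical.

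A-kinase anchoring proteins hold the regulatory subunits of protein kinase A, the kinase that cAMP switches on, at fixed places in the cell, beside the substrates, phosphatases and phosphodiesterases that shape its signal. Each has its own address and its own further partners. Akap12, also known as gravin or SSeCKS, is a large scaffold at the plasma membrane and cytoskeleton that binds protein kinase A, protein kinase C and calcineurin. Bradykinin acts through G protein-coupled receptors that raise calcium and activate protein kinase C, and the prostaglandins made downstream can raise cAMP.

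The stretch of genome around the annotated start of a member gene shows what short elements lie there, and 3 members are printed because they span the range of change: Akap12 with the largest, Akap13 with the next and Akap11 with a change near 0 in 5 of the libraries. Each window runs from 250 bases before the start to 50 after it, from RefSeq's GRCr8 assembly, which is not the build of the counts (Rnor_6.0). All 5 members had such a window. Capitals mark the short cAMP response element (TGACG) and the GC box (GGGCGG), searched on both strands.
Akap12, chr1:43135265-43135564, plus strand: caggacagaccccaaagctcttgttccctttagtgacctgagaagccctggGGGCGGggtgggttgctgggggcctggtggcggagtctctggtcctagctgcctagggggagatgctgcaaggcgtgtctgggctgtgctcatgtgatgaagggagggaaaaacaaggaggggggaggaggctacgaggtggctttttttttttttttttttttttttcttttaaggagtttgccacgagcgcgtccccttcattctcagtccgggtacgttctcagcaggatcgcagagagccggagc
Akap13, chr1:138723900-138724199, plus strand: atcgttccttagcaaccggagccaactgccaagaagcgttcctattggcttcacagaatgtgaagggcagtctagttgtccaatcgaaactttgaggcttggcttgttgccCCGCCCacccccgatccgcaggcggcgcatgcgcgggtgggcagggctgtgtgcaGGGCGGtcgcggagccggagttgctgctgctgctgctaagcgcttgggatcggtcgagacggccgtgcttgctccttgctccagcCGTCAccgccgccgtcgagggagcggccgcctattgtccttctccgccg
Akap11, chr15:60365286-60365585, minus strand: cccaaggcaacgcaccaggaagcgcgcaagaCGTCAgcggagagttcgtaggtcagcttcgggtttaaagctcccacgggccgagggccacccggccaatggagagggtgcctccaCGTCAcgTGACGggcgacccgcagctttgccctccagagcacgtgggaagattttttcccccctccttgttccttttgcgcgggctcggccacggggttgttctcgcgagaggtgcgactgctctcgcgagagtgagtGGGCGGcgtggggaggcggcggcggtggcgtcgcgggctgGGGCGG
The Akap12 window held 1 GC box, at position -199 from the start, no short element and a run of 25 T. The Akap13 window held 1 short element at position 1 and 2 GC boxes at -139 and -84. The Akap11 window held 3 short elements, at -219, -134 and -127, and 2 GC boxes. The windows of Akap1 and Akap10, not printed, held 0 short elements, as that of Akap12 did, and 0 and 2 GC boxes. Of 33469 rat windows of 300 bases, 21.2% held a short element, 33.1% a GC box and 1.83% the full cAMP response element (TGACGTCA, which contains the short one). The full element was in none of the 5 member windows. These matches are descriptions of letters and say nothing of which factors bind.

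Total counts ran from 12883067 to 14604917 in bradykinin libraries and from 14252966 to 15462764 in control libraries. Bradykinin replicate 3 differed most from its fellows: over the 12413 genes with enough counts, the SD of its log2 deviation from the others was 0.61, against 0.25 to 0.29 for the rest. It also moved with genomic span. In the fifth of genes with the shortest span its level over the mean of bradykinin replicates 1 and 2 had a median log2 ratio of 0.33, and in the fifth with the longest span -0.44. The part of this in the results was not tested, and fold changes are given with and without that library. Of the 15 nucleus pulposus markers listed, 10 were measured, and Krt18, Krt19, Tbxt, Noto and Shh had no row. Acan, the large disc proteoglycan, averaged 437 ± 117.5 CPM with bradykinin, against 262 ± 8.31 CPM in controls (SD, n = 3 each), while Col2a1, the cartilage collagen, was near 0 (0.0727 to 0.13 CPM with bradykinin, 0 to 0.0702 CPM in controls). Without bradykinin replicate 3, edgeR called 1 of the 9 tested markers higher (Acan) and 1 lower (Car3). Over all tested genes 1.95% were higher and 1.15% lower in that fit. Car3, a carbonic anhydrase, was at 2.60, 3.34 and 3.58 CPM with bradykinin, against 7.66, 8.49 and 8.11 CPM in controls. Krt8, a notochordal keratin, ran from 0.788 to 1.76 CPM with bradykinin, against 0.811 to 1.43 CPM in controls, so the markers given singly cover the label in part. All 10 measured markers summed to 657 to 894 CPM with bradykinin and 619 to 655 CPM in controls. Cd24, Car12, Sox9, Slc2a1, Foxf1 and Pax1 are in these sums and are not given singly. Fibroblast and annulus markers (7 measured, among them the collagen genes Col1a1 and Col1a2) were abundant, summing to 61270 to 77020 CPM with bradykinin and 65700 to 70150 CPM in controls, with 0 of 6 tested called in either fit. The 3 measured neural and glial markers, mostly Tubb3, summed to 6.15 to 8.28 CPM with bradykinin and 7.57 to 8.78 CPM in controls. Endothelial markers (4 measured) summed to 0.456 to 1.53 CPM with bradykinin and 0.608 to 1.299 CPM in controls. The 3 measured leukocyte markers summed to 9.93 to 14.1 CPM with bradykinin, against 8.79 to 9.90 CPM in controls, nearly all of it Cd14.

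Akap12 was lower in every bradykinin library than in any control. CPM, used throughout, are counts scaled to a common library size by TMM factors. Akap12 stood at 888, 890.4 and 687 CPM in bradykinin replicates 1, 2 and 3, against 1366, 1335 and 1452 CPM in control replicates 1, 2 and 3. The groups did not overlap, and bradykinin replicates 1 and 2 were almost equal while replicate 3 was lower still. Akap12 has a long genomic span, at percentile 83.4 of the tested genes. Bradykinin replicate 3 ran low in such genes, with a median log2 ratio of -0.44 to replicates 1 and 2 in the 2294 of longest span. The part of span in the lower Akap12 value of replicate 3 was not tested. Means were 822 ± 116 CPM with bradykinin and 1384 ± 60.8 CPM in controls (SD, n = 3 each), so the bradykinin mean was 59.4% of the control mean. The log2 fold change of bradykinin over control was -0.75 ± 0.13 (SE). Without bradykinin replicate 3 it was -0.64 ± 0.05, and the 2 remaining libraries were at 64.2% of the control mean. Less RNA of a gene per cell and fewer cells that express it cannot be told apart in such bulk libraries.

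This contrast is also what chose Akap12, which ranked 8 of 12413 genes by p in the 6 libraries (edgeR adjusted p = 0.437), so its values are a description and not a test. With a threshold of 0.05 on the adjusted p, edgeR called 0 of 12413 genes (0%) in the 6 libraries, where 849 passed unadjusted. The count was 0 with limma-voom as well and 44 with DESeq2 (0.354%), Akap12 among these. Without bradykinin replicate 3 edgeR called 388 of 12536 genes, or 3.10%, with 244 higher (1.95%) and 144 lower (1.15%). Akap12 was the only member among them, with rank 4 by p. All bradykinin libraries lay below all controls in 3 of the 5 members, against 8.71% of tested genes, and above all controls in 0 of 5, against 8.84%; since the contrast was used in the choice nothing is read from that share.

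**Figure D1:**
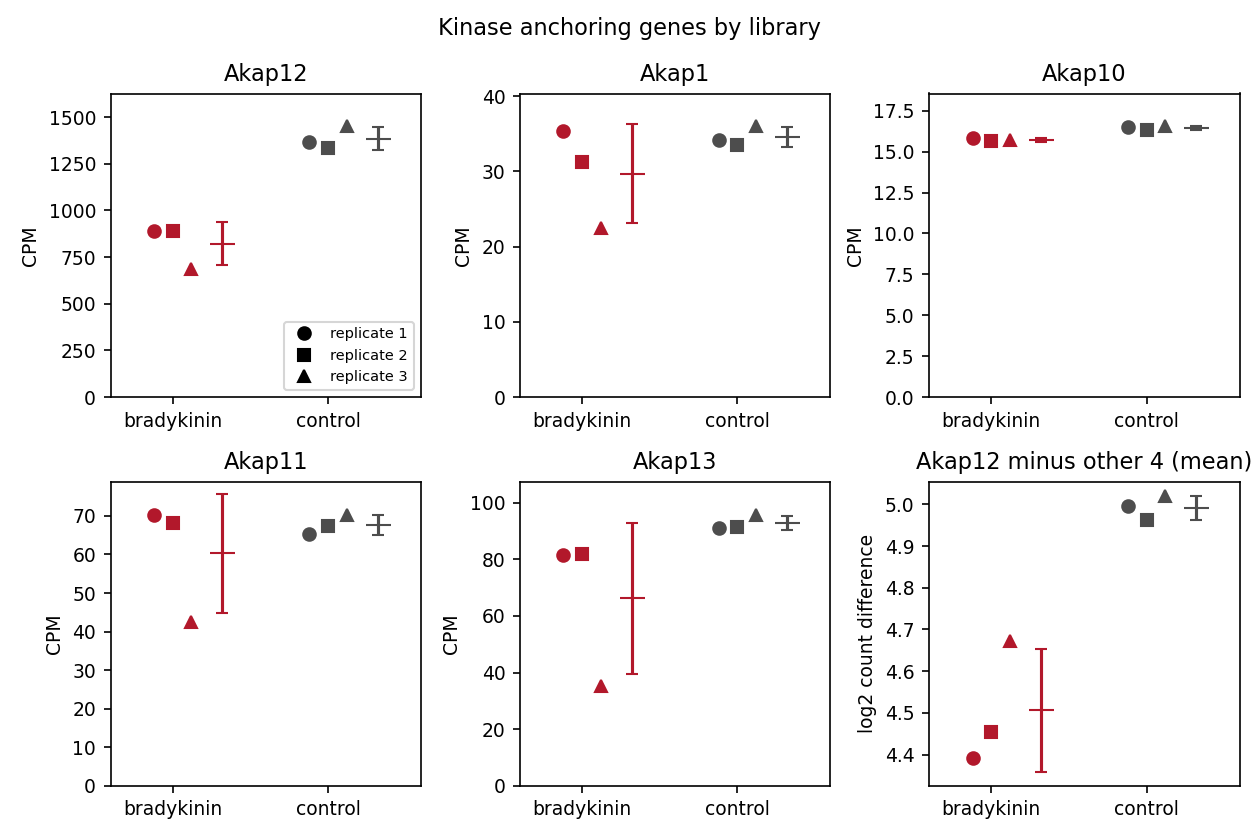
CPM of each member gene by library (first 5 panels, axes from 0) and, in the last panel, the log2 count of Akap12 minus the mean log2 count of the other 4 members within each library (axis not from 0). Red marks are bradykinin and grey marks control libraries, shapes are replicates, and the dash with its bar is the mean ± SD of 3 libraries; Akap12 shows 3 bradykinin libraries at 687 to 890.4 CPM below controls at 1335 to 1452 CPM.

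Akap13, also called AKAP-Lbc, joins the anchoring of protein kinase A to a guanine nucleotide exchange activity. Its bradykinin replicates 1, 2 and 3 held 81.4, 81.95 and 35.4 CPM, against 91.2, 91.5 and 95.9 CPM in control replicates 1, 2 and 3. All bradykinin libraries were lower, but replicate 3 lay far below the other two. The log2 fold change of -0.49 ± 0.29 in 6 libraries therefore rested largely on that library, and it was -0.19 ± 0.06 without it. Akap13 is among the genes of longest genomic span, at percentile 97.4 of the tested genes. The part of span in its replicate 3 value was not tested.

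In Akap1, Akap10 and Akap11 the mean of bradykinin replicates 1 and 2 was 96.3%, 95.6% and 102.2% of the control mean. Akap1 anchors the kinase at the outer mitochondrial membrane, and it was at 35.3, 31.3 and 22.5 CPM with bradykinin, against control values of 34.2, 33.5 and 36.0 CPM. The first of these bradykinin libraries lay inside the control range, so the groups overlapped. Its log2 fold change was -0.22 ± 0.17 in 6 libraries and -0.06 ± 0.08 without bradykinin replicate 3.

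Akap11, also called AKAP220, is a vesicle-associated anchor that also binds the kinase GSK3 and protein phosphatase 1. Its CPM were 70.2, 68.2 and 42.4 in bradykinin replicates 1, 2 and 3, against 65.3, 67.4 and 70.4 CPM in controls. Replicates 1 and 2 lay among the controls, and replicate 3 was at 62.7% of the control mean. Its log2 fold change of -0.17 ± 0.19 in 6 libraries turned to 0.03 ± 0.06 without replicate 3.

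Akap10, known as D-AKAP2, binds both classes of regulatory subunit. It was the steadiest member, at 15.8, 15.6 and 15.7 CPM with bradykinin and 16.5, 16.3 and 16.6 CPM in controls. Its groups did not overlap, yet the bradykinin mean was 95.6% of the control mean. Counts of 201 to 241 carry a counting error of about 6.76% in a single bradykinin library, and less in a mean of 3. The log2 fold change of Akap10 was -0.07 ± 0.11 in 6 libraries and -0.06 ± 0.10 without replicate 3. In bradykinin replicate 3 the gene was at 95.3% of the control mean.

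Within a library, the level of one member relative to another does not depend on how the library was scaled. The log2 count of Akap12 minus the mean log2 count of the other 4 members was 4.39, 4.45 and 4.67 in bradykinin replicates 1, 2 and 3 and 4.96 to 5.02 in controls. The groups did not overlap, and the mean difference was -0.49 (-0.57 without bradykinin replicate 3), against an SD of 0.15 among bradykinin and 0.03 among control libraries. Akap12 was chosen on this same contrast, so the gap is a description and not a test. Counts are not corrected for transcript length, so the difference between libraries can be read and the size of the ratio cannot. Replicate 3 lay closest to the controls on this measure, and its other 4 members were lower as well, between 38.1% (Akap13) and 95.3% (Akap10) of their control means.

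None of the other genes that carry an Akap name passed the test. A list of these, made without Akap17a (described further on), had 11 genes in the table, of which 8 had enough counts to test; Akap3, Akap4 and Akap14, known as sperm or cilium anchors, had 0 to 3 counts per library. In the 6 libraries 0 of 8 passed edgeR, with a median log2 fold change of -0.23 against 0.01 over all tested genes, and in the 5 libraries without bradykinin replicate 3 again 0 of 8 passed, with a median of 0.04 against 0. Over all tested genes 0% passed in the 6 libraries and 3.10% in the 5. At such shares 0 calls in a list this short say little about it.

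Pakap, which includes the former Akap2 and anchors the kinase near actin, was at 235, 239 and 138 CPM with bradykinin, against control values of 226, 242 and 257 CPM (log2 fold change -0.24 ± 0.20 in 6 libraries; -0.03 ± 0.05 without replicate 3, edgeR adjusted p = 0.887). Akap9, a very large anchor of the Golgi and centrosome, was at 99.1, 99.5 and 41.0 CPM with bradykinin, against control values of 104, 101 and 100.2 CPM (-0.35 ± 0.30 in 6 libraries; -0.04 ± 0.05 without replicate 3, adjusted p = 0.819). Both genes were near their control level in replicates 1 and 2 and low in replicate 3. Akap6, a perinuclear anchor of muscle cells, and the synaptic and membrane anchor Akap5 had the same shape at lower levels, with log2 fold changes of -0.25 ± 0.36 and -0.21 ± 0.34 in 6 libraries and 0.10 ± 0.15 and 0.09 ± 0.26 without replicate 3. Akap17b was likewise low in replicate 3 only (-0.34 ± 0.37 in 6 libraries, -0.01 ± 0.27 without it). In that library the log2 ratio to the control mean was -1.31 for Akap9, -1.34 for Akap6, -1.06 for Akap5 and -1.31 for Akap17b.

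In another set of Akap genes bradykinin replicate 3 lay near the controls. Akap8, a nuclear matrix anchor, was at 69.4, 66.3 and 68.9 CPM with bradykinin, against control values of 66.3, 59.1 and 63.3 CPM (log2 fold change 0.12 ± 0.09, edgeR adjusted p = 0.737 in 6 libraries; 0.11 ± 0.07 and 0.490 without replicate 3). Its relative Akap8l (-0.06 ± 0.15, and -0.07 ± 0.13 without replicate 3) and the membrane anchor Akap7 (0.16 ± 0.16, and 0.20 ± 0.17 without it) did not pass either. Akap17a, a splicing-related anchor that was named after its values were seen, was at 36.5, 37.5 and 39.2 CPM with bradykinin, against control values of 41.2, 42.3 and 38.7 CPM (-0.11 ± 0.10, adjusted p = 0.746 in 6 libraries; -0.14 ± 0.07 and 0.405 without replicate 3).

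**Figure D2:**
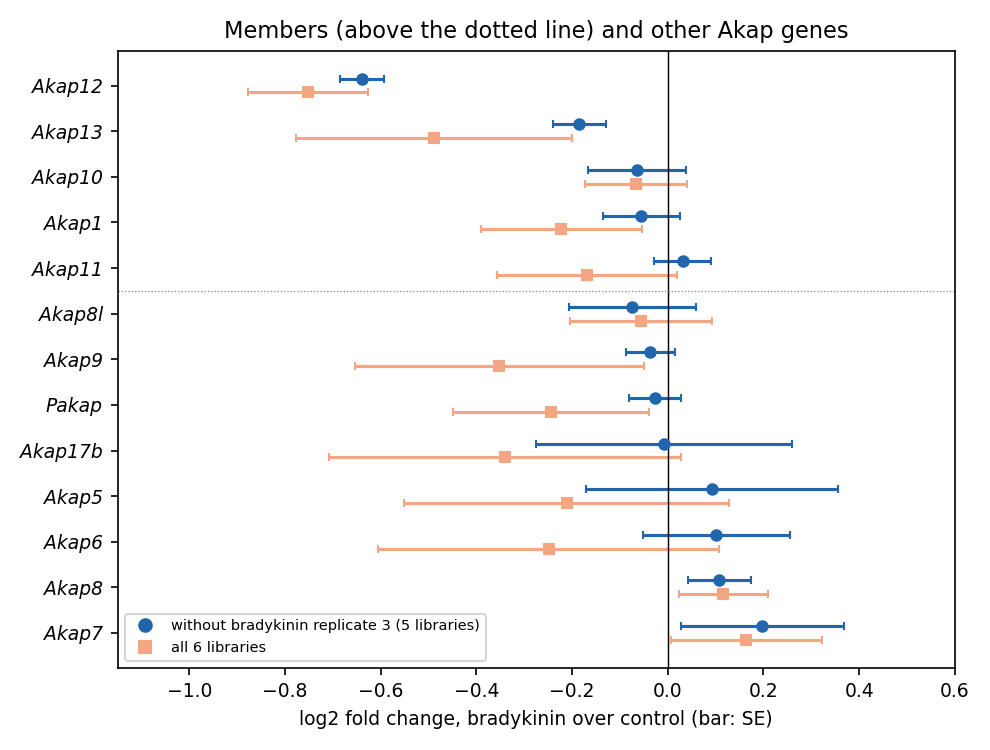
Log2 fold change of bradykinin over control with its SE for the 5 members (above the dotted line) and the 8 tested genes of the list of other Akap genes, without bradykinin replicate 3 (blue circles, 5 libraries) and in all 6 libraries (orange squares). Akap12 is lowest in both fits, at -0.64 and -0.75, and the orange squares of Akap13, Akap9, Akap17b, Akap6 and Akap5 lie well to the left of their blue circles.

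**Figure D3:**
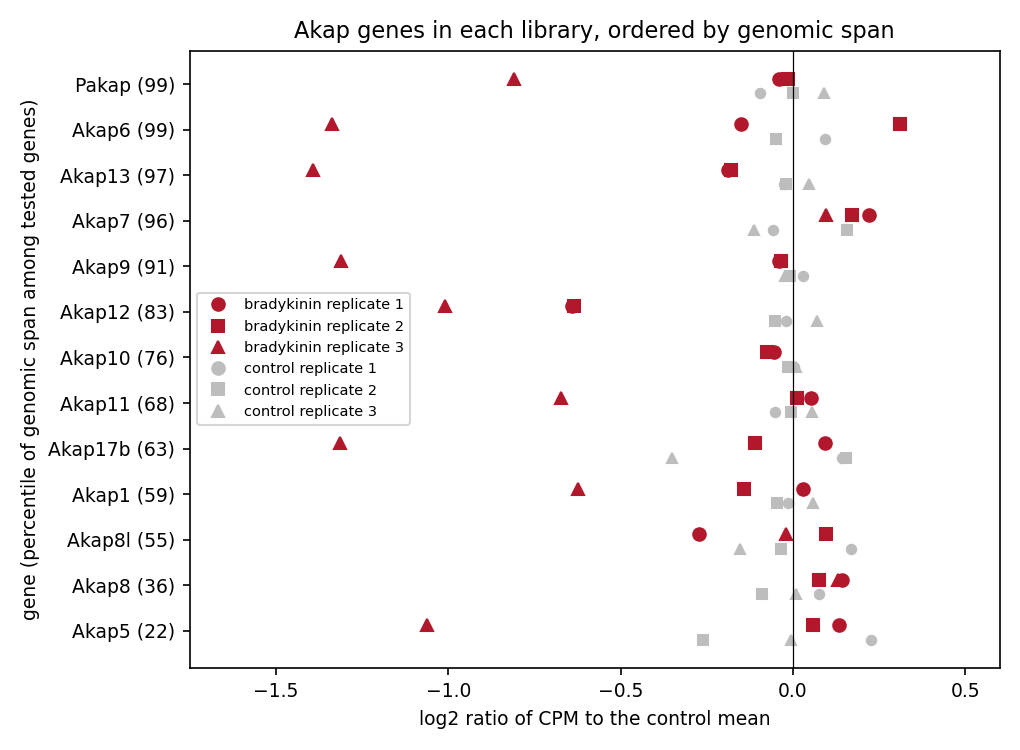
Log2 ratio of CPM to the control mean for 13 tested Akap genes, Akap17a not shown, in each bradykinin (red) and control (grey) library, ordered from the longest genomic span at the top to the shortest at the bottom; the number beside a name is its span percentile among tested genes. Akap12 is the 1 gene whose bradykinin replicates 1 and 2 both lie near -0.64, while replicate 3 is far left in 9 of the genes and near 0 in Akap7, Akap8, Akap8l and Akap10.

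Genes for proteins that anchor the kinase under other names gave no call. Of 12 tested, 0 passed with or without bradykinin replicate 3, where 0% of all tested genes passed in 6 libraries and 3.10% in 5. The median log2 fold change of the 12 was -0.12 in 6 libraries and -0.04 in 5. The smallest p without that library belonged to Itga4, an integrin subunit that binds protein kinase A, at 6.38, 5.96 and 2.34 CPM with bradykinin and 7.598, 7.72 and 9.60 CPM in controls (-0.43 ± 0.17, edgeR adjusted p = 0.221; -0.77 ± 0.34 and 0.737 in 6 libraries). Pcnt, a centrosomal anchor, Nbea, a vesicle-traffic anchor, and Wasf1, an actin regulator, had log2 fold changes of 0.16 ± 0.08, -0.09 ± 0.07 and -0.15 ± 0.13 without replicate 3, and -0.10, -0.43 and -0.13 in 6 libraries, so that the sign of Pcnt turned. The deposited annotation gives the molecular function "protein kinase A binding" to 42 genes, all 5 members included. Of the other 37, a set added after the data were seen, 30 were tested without bradykinin replicate 3 and 0 passed (median 0.01). The 30 include genes of the other lists, such as Akap8, Akap9 and Ezr, and subunits of the kinase itself, such as Prkar1a and Prkaca. This set is thus not separate from those lists.

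Subunits of protein kinase A itself did not pass the test. Of 8 tested genes for subunits and inhibitor peptides, 0 passed in either fit, and the medians were -0.03 in 6 libraries and 0.01 in 5. The shares of all tested genes that passed were 0% in 6 libraries and 3.10% in 5. Prkar1b, a type I regulatory subunit, had 20.97, 19.0 and 23.3 CPM with bradykinin, against 13.6, 15.2 and 15.95 CPM in controls (fold change on the log2 scale 0.50 ± 0.13, edgeR adjusted p = 0.624; 0.42 ± 0.11 and 0.0576 without replicate 3). The bradykinin libraries all lay above the controls, with replicate 3 the highest. Prkaca, the main catalytic subunit, was at 51.5, 51.2 and 61.6 CPM with bradykinin, against control values of 44.9, 44.5 and 48.5 CPM (0.25 ± 0.11, adjusted p = 0.737 in 6 libraries; 0.16 ± 0.07 and 0.288 without replicate 3), again without overlap. Such a separation, all bradykinin libraries above all controls, was seen in 8.84% of all tested genes. Prkar2b, a type II regulatory subunit of the kind most anchoring proteins bind, and the inhibitor gene Pkig were at -0.36 ± 0.12 and -0.34 ± 0.11 without replicate 3 (adjusted p = 0.152 and 0.146) and at -0.20 and -0.09 in 6 libraries.

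Among enzymes that make and break down cAMP, a pair rose without bradykinin replicate 3. Of 19 tested, 0 passed in 6 libraries (median -0.20), and 2 rose and 0 fell in 5 libraries (median 0.002), where 1.95% of all tested genes rose and 1.15% fell. Adcy8, a calcium-stimulated adenylyl cyclase, held 55.7, 61.5 and 44.1 CPM in bradykinin replicates 1, 2 and 3, against 44.3, 42.5 and 43.4 CPM in controls. Replicates 1 and 2 lay above every control and replicate 3 among them, so that the log2 fold change was 0.31 ± 0.14 in 6 libraries (edgeR adjusted p = 0.733) and 0.44 ± 0.07 without replicate 3 (adjusted p = 0.00383). Adcy8 passed under all 12 alternatives of the fit without replicate 3. Pde1a, a calcium- and calmodulin-stimulated phosphodiesterase, was at 19.6, 18.7 and 12.5 CPM with bradykinin, against control values of 12.9, 14.2 and 12.7 CPM. Replicates 1 and 2 again lay above every control, while replicate 3 lay just below them all. It rose without replicate 3 (0.53 ± 0.11, edgeR adjusted p = 0.0175; 0.737 with it), and its call was lost without bradykinin replicate 1, control replicate 1 or control replicate 3. Adcy1 and Pde2a were at 1.15 ± 0.34 and 0.52 ± 0.18 without replicate 3 and 0.83 and 0.31 in 6 libraries, and did not pass.

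Protein kinase C and its substrates gave 0 calls among 8 genes in 6 libraries and 1 fall in 5 (medians -0.12 and -0.12), against 1.15% of all tested genes lower in the 5. That was Marcksl1, a membrane-bound substrate of the same kinase that phosphorylates Akap12, at 38.9, 38.3 and 67.2 CPM with bradykinin and 48.4, 46.2 and 50.1 CPM in controls. It fell without replicate 3 (-0.32 ± 0.07, edgeR adjusted p = 0.0261; 0.999 with it), but in that library it stood above every control, and the call was lost under 6 of 12 alternatives, among them the removal of any single remaining library. Marcks, Prkca and Prkci were at -0.22 ± 0.09, -0.13 ± 0.07 and -0.09 ± 0.06 without replicate 3 and -0.07, -0.36 and -0.18 in 6 libraries, and did not pass.

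No described partner of Akap12 was called lower. Of 9 tested, 0 passed in 6 libraries (median 0.01), and 2 rose and 0 fell in 5 (median 0.006), against 1.95% and 1.15% of all tested genes. B4galt1, a galactosyltransferase that binds SSeCKS at the cell surface, was at 124, 132 and 103 CPM with bradykinin, against control values of 104, 107 and 98.3 CPM, and rose without replicate 3 (0.31 ± 0.06, edgeR adjusted p = 0.0087; 0.22 ± 0.12 and 0.737 with it). Plk1, a mitotic kinase, was at 112, 95.8 and 109 CPM with bradykinin, against control values of 77.5, 83.1 and 90.6 CPM, higher in all 3 libraries, as were 8.84% of tested genes (0.31 ± 0.08, adjusted p = 0.0472 without replicate 3; 0.33 ± 0.11 and 0.707 with it). B4galt1 lost its call without bradykinin replicate 2 and with replicate number as a block, and Plk1 without bradykinin replicate 1, control replicate 1 or control replicate 2 and under 3 other scalings or tools. Src and the cyclin gene Ccnd1 were at -0.16 ± 0.05 and -0.12 ± 0.05 without replicate 3 and -0.14 and -0.09 in 6 libraries, and did not pass.

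Partners of Akap1, Akap10 and Akap11 and the factors downstream of cAMP gave no call. Of 12 partners of Akap1, Akap10 and Akap11, 0 passed in either fit (medians 0.06 and 0.006), with Iqgap1, Gsk3a, Rab4a and Dnm1l at 0.13 ± 0.04, 0.10 ± 0.06, -0.20 ± 0.14 and -0.08 ± 0.08 without replicate 3 and -0.10, 0.05, -0.07 and -0.21 in 6 libraries, where Iqgap1 had the opposite sign. Of 14 CREB factors and cAMP-responsive targets, 0 passed in either fit (medians -0.10 and 0.02). Per1, a clock gene with cAMP response elements, was at 26.6, 30.2 and 19.2 CPM with bradykinin, against control values of 35.9, 31.4 and 36.3 CPM (-0.28 ± 0.09, adjusted p = 0.137 without replicate 3; -0.45 ± 0.17 and 0.714 with it). Crtc3, Crebbp and Creb1 were at -0.28 ± 0.12, -0.12 ± 0.07 and 0.11 ± 0.08 without replicate 3 and -0.53, -0.42 and -0.11 in 6 libraries, so that the sign of Creb1 turned.

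**Figure D4:**
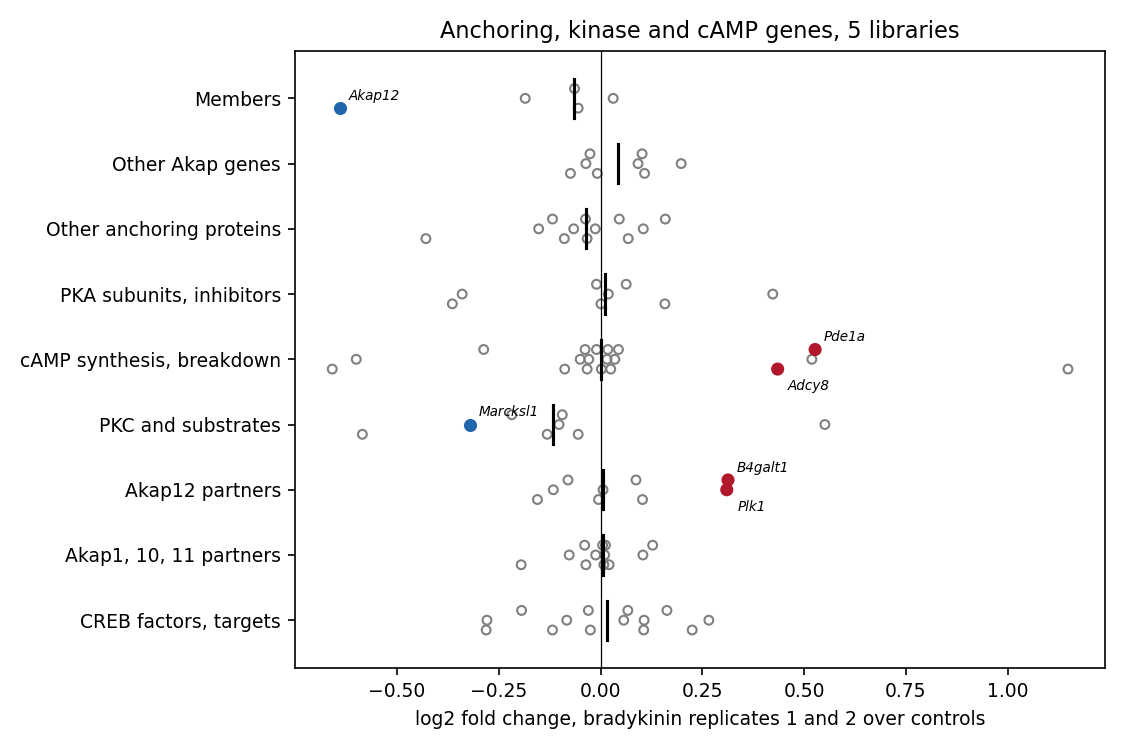
Log2 fold change of bradykinin replicates 1 and 2 over the 3 controls for the members and 8 lists of related genes, 1 circle a gene. Filled circles passed edgeR (red higher, blue lower; Akap12 had been chosen on this contrast), open circles did not, and the black bar is the median of each list; 6 circles are filled, of which Akap12 lies farthest left, at -0.64.

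The genes whose pattern over the 6 libraries lay nearest that of Akap12 were Irs1, Galnt16, Efnb1, Slc2a10 and Cdh11. Likeness was the root mean square difference of log2 deviations from each gene's own mean, from 0.08 for Irs1 to 0.10 for Cdh11, with a median of 0.43 over 9817 genes. Irs1, an adaptor of insulin and IGF receptors, was at 41.6, 45.2 and 28.8 CPM with bradykinin, against control values of 64.1, 63.3 and 65.0 CPM. Cdh11, a mesenchymal cadherin, was at 60.8, 62.5 and 49.3 CPM with bradykinin, against control values of 80.9, 85.9 and 89.3 CPM. Efnb1 encodes an ephrin ligand, Galnt16 a glycosyltransferase and Slc2a10 a sugar transporter. Among the other members the measure was 0.27 (Akap1), 0.29 (Akap13), 0.30 (Akap11) and 0.37 (Akap10). All were under that median, but so was Akap10, which hardly varied between libraries (15.6 to 16.6 CPM). A value under the median thus does not show a pattern shared with Akap12.

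Without bradykinin replicate 3 the measure was 0.22 for Akap13, 0.28 for Akap10, 0.29 for Akap1 and 0.33 for Akap11, against a median of 0.33 over 9775 genes, and the nearest genes were Acta2, Sema3d, Irs1, Cxcl12 and Sema6a, of which Irs1 was also in the first set. Acta2, smooth muscle actin, was nearest at 0.04, with 1006, 973 and 1420 CPM in bradykinin replicates 1, 2 and 3 and 1425, 1430 and 1533 CPM in controls. In replicate 3 it was close to the controls, where Akap12 was at its lowest. The 5 contractile smooth muscle markers summed to 2230, 2267 and 3122 CPM in bradykinin replicates 1, 2 and 3 and 3023 to 3151 CPM in controls. Without replicate 3 edgeR called 3 lower (Acta2, Tagln and Myh11) and 1 higher (Des), where 1.15% of all tested genes were lower and 1.95% higher. With that library 0 of 5 were called. The part of this marker shift in the Akap12 values was not tested.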

How the data were processed

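The values deposited by the authors are raw whole-number counts, 1 row for each Ensembl gene. The submitters' processing notes list, with no order or role, the read trimmer fastp 0.23.2, the aligners HISAT2 2.2.1 and Bowtie2 2.4.5, the quantifier RSEM 1.3.3, SAMtools, DESeq2 1.34.0 and the build Rnor_6.0. RSEM shares reads among similar genes by estimate, and no source used here says how whole numbers were reached. The labels do not say that strand was kept, so overlapping antisense genes cannot be told apart.

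Symbols came from the table's Entrez identifiers through RefSeq's GRCr8 gene table, which named 15073 of 17139 genes. Genomic spans from it only rank genes, since transcript lengths were not used here. The fits used edgeR 4.0.16 under R 4.3.3: filterByExpr, TMM, a two-sided quasi-likelihood F test and Benjamini-Hochberg adjustment over all tested genes, with 0.05 as the threshold. SE is the log2 fold change over the root of F. Log2 CPM for likeness had a prior count of 2 and a floor of 2 on average log2 CPM. CPM means are over the libraries named. Limma 3.58.1 (voom), DESeq2 1.42.0 and the other settings below were alternatives. The code was tested on simulated data.

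The members, lists and tests were chosen with earlier results of these data known. Named genes are the members, the tested Akap genes, up to 4 members of each other list (marker lists apart) with the smallest p without bradykinin replicate 3 and the 5 genes nearest Akap12. Marker genes, the untested Akap3, Akap4 and Akap14, Akap17a, the annotation set, Sema3d, Cxcl12 and Sema6a fall outside that rule and were named after their values were seen. Listed genes with no row in the table were not analysed here, and 1 further list is not reported here. Replicate pairs gave a chi-square per degree of freedom of 5.18 to 79.7 with bradykinin and 2.29 to 3.73 in controls, so none was counted as 1 sample. Intervals and errors from counts cover counting error only.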

Additional observations from a re-analysis of the deposited data

How the results depend on the processing

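The log2 fold change of Akap12 was below 0 under all 13 alternatives to the 6-library fit (-0.82 to -0.64) and all 12 alternatives to the fit without bradykinin replicate 3 (-0.67 to -0.60). Its log2 difference from the other 4 members, -0.49, moved by less than the bradykinin SD of 0.15 under all alternatives run, and by more than the control SD of 0.03 in some (-0.57 without bradykinin replicate 3, -0.43 without bradykinin replicate 1). In the 6 libraries the count of genes changed was 0, but 44 with DESeq2, and leaving out one library gave 0 to 388, the highest without bradykinin replicate 3. Without that library 388 genes changed, 681 with no filter on low counts, and 138 to 333 when a further library was left out (145 and 138 without control replicates 1 and 2, 209 without control replicate 3; 300.0 and 333 without bradykinin replicates 1 and 2, where the lone bradykinin library was taken to have the controls' spread). The cause of these moves was not tested, apart from the removal of samples or filter itself. Scaling by library totals turned the split of the 5 libraries from 244 higher and 144 lower to 162 higher and 185 lower. Akap11 was the 1 member whose sign turned in the 6-library alternatives (0.03 without bradykinin replicate 3), and Akap1 turned to 0.03 at most in those of the 5 libraries.

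Bradykinin and control libraries share replicate numbers, yet deviations of same-numbered libraries correlated at -0.09, -0.02 and -0.05. No pairing by number was thus seen, but with 3 libraries per group a small one could go unseen. With a replicate block 0 genes changed in the 6 libraries and 301 in the 5, with Akap12 at -0.76 and -0.60. Among Akap12 and the called genes of the reported lists, marker lists apart, B4galt1 and Marcksl1 were no longer called with the block in the 5 libraries. Called markers and the genes nearest Akap12 were not checked with it. Among the tested Akap genes, depth limits Akap5 and Akap17b most. Prkar1b and Adcy1 each passed under 1 of the 12 alternatives without bradykinin replicate 3.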
